A study of Mus musculus with 40 samples.

Results

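The 10 genes described here are markers of radial glia, the progenitor cells that line the ventricles of the developing forebrain. They were chosen by name, and each was matched by its NCBI gene ID to 1 row of the authors' deposited table of KI against WT at each of 2 embryonic stages. All 10 were found among the 17940 genes listed at E14.5 and among the 15449 listed at E18.5, and all 10 have an adjusted p at both stages. The libraries are polyadenylated RNA from the forebrain of a male mouse, with 5 wild-type (WT) and 5 Chd8 KI libraries at each stage and 20 in all. The title of the study calls the KI genotype a duplication of Chd8. Where the added copy lies and which promoter drives it are not given in the sources used here, and no age, agent or allele beyond stage and genotype is labelled. The tables hold means and fold changes rather than values per library, so the depth of each library is unknown and no sample's own value can be shown.

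Radial glia divide at the ventricular surface, where they self-renew or give rise to neurons, directly or through intermediate progenitors. Late in gestation many of them turn to making glia, and part of the marker set is shared with astrocytes and other glial cells. CHD8 is an enzyme that remodels chromatin, and mutations of its gene are a known cause of autism. In bulk tissue, fewer cells of a type and less RNA per cell cannot be told apart.

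The markers fall into 4 roles. Sox2, Pax6, Sox9 and Hopx code for nuclear factors of progenitors, Nes (nestin) and Vim (vimentin) for intermediate filaments, Fabp7 for the brain lipid-binding protein, and Slc1a3 (the glutamate transporter GLAST), Ttyh1 (a tweety-family membrane protein) and Prom1 (prominin-1, found on apical membrane protrusions) for membrane proteins. Emx1, a factor of the dorsal forebrain, had a mean normalized count of 1281 at E14.5 and 520.4 at E18.5 per the authors' deposited table. Of 8 midbrain, hindbrain and spinal cord genes, 2 were listed at the earlier stage and 1 at the later, with a highest mean normalized count of 83.4 at E14.5. Chd8 rose in KI per the authors' deposited table at both stages, by 55.8% at E14.5 (adjusted p = 1.49e-88) and by 42.5% at E18.5 (adjusted p = 1.34e-37), and its sign set the direction of every value given here.

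The promoters of the 4 genes with the lowest unadjusted p at either stage are shown because these are the genes on which the comparisons turn: Ttyh1 (the marker that passed at E14.5), Sox2 (the highest log2 fold change at E14.5), and Prom1 and Fabp7 (the most negative log2 fold changes at E18.5). Each is the RefSeq window of GRCm38.p6 from 250 bases before to 50 bases after the transcription start, written 5′ to 3′ on the strand of the gene. Capitals mark exact matches on either strand to the CCAAT box, which is spelled as it is named, or to the GC box with the letters GGGCGG, the TATA box with the letters TATAAA, the SOX core with the letters ACAAT, the RBPJ core with the letters TGGGAA or the NFI core with the letters TTGGCA. On the opposite strand, the letters of a CCAAT box can overlap those of an NFI core. The windows are chr7:4119280-4119579 on the plus strand for Ttyh1, chr3:34649745-34650044 on the plus strand for Sox2, chr10:57784673-57784972 on the plus strand for Fabp7, and chr5:44101687-44101986 on the minus strand for Prom1, whose more upstream listed start is shown.
Ttyh1: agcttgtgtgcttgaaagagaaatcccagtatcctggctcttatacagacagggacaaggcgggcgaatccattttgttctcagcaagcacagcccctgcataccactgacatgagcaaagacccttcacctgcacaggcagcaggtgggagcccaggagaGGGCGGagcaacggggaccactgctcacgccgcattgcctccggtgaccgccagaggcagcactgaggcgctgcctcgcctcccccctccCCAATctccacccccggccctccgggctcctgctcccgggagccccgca
Sox2: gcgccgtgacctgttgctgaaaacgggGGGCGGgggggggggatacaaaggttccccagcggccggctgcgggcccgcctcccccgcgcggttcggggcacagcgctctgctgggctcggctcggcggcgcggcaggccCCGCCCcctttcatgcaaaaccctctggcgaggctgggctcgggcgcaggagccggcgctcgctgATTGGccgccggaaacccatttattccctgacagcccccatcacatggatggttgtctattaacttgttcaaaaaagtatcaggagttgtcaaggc
Fabp7: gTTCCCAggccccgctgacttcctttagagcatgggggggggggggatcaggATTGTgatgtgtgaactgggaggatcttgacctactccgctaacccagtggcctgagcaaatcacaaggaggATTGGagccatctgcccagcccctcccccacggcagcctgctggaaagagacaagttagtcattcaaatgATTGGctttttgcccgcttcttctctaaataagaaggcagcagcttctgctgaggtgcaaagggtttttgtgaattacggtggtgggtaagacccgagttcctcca
Prom1: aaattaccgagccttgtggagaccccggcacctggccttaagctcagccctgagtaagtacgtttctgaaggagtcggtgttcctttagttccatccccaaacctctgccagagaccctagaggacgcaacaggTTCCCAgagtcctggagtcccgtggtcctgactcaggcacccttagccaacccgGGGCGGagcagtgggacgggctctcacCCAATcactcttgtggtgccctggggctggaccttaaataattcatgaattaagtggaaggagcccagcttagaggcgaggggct

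Of the 10 markers 9 had a promoter in the table (Sox9 did not), and 8 of these 9 held a CCAAT box at their most upstream listed start. Over all 12 listed windows of these markers, 9 held a CCAAT box, against 37.4% of all 32851 windows, which include further starts of many genes. The match lies 46 bases before the start in Sox2, 35 before it in Prom1 and 1 base after it in Ttyh1, while Fabp7 has 2 matches, at 126 and 56 bases before. A GC box was found in 5 of the 9 (35.7% of all windows), a SOX core in 4 (31.0%), an RBPJ core in 2 (25.6%), a TATA box in 2 (13.6%) and an NFI core in 0 (14.1%). Over the 12 windows these counts were 5, 5, 2, 2 and 0. The promoters shown differ in base composition. The window of Sox2 is 66.3% G and C and that of Ttyh1 63.3%, against 57.0% in Prom1, 54.0% in Fabp7 and a median of 52.7% over all windows. The ratio of observed to expected CpG was 0.819 in Sox2, 0.476 in Ttyh1, 0.410 in Prom1 and 0.276 in Fabp7. These matches are a description of letters and not of bound sites.

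Between the stages the markers separated by level. On the log2 scale, after both tables were set to the same median ratio over the 13106 genes tested at both stages, 7 of the 10 stood lower at E18.5 and 3 stood higher. These ratios were not tested, because the tables were normalized separately and hold no values per library. Pax6, a homeobox regulator of dorsal progenitors, had a mean normalized count of 1998 at E14.5 and 591 at E18.5 per the authors' deposited table, a level 3.61-fold lower at E18.5 on the shared scale. The filament genes were close behind. Nes went from 9452 to 2957 and Vim from 7858 to 2700 in mean normalized count per the authors' deposited table, which puts them 3.41-fold and 3.10-fold lower. Prom1 (1150 and 414) was 2.96-fold lower, Sox2 (4469 and 2087) 2.28-fold lower and Sox9 (2176 and 1088) 2.13-fold lower, with mean normalized counts from the authors' deposited table. Ttyh1 was the least lowered of the 7, at 1.42-fold (3268 and 2447 per the authors' deposited table).

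The 3 markers that stood higher at E18.5 were Slc1a3, Fabp7 and Hopx, genes that astrocytes or late radial glia also express. Such expression does not set these 3 apart, since Sox9, also shared with astrocytes, stood 2.13-fold lower. Their mean normalized counts per the authors' deposited table were 2529 and 4777 for Slc1a3, 7039 and 9680 for Fabp7, and 211 and 286 for Hopx, ratios of 1.77-fold, 1.29-fold and 1.27-fold on the shared scale. Among all genes tested at both stages the middle 80% of log2 ratios ran from −0.65 to 0.97. Pax6, Nes, Vim, Prom1, Sox2 and Sox9 lay between the 1.44th and the 4.50th percentile of these genes and Slc1a3 at the 87.4th. Setting the tables to equal sums in place of equal medians moved each ratio by 0.02 on the log2 scale and changed no direction.

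**Figure D1:**
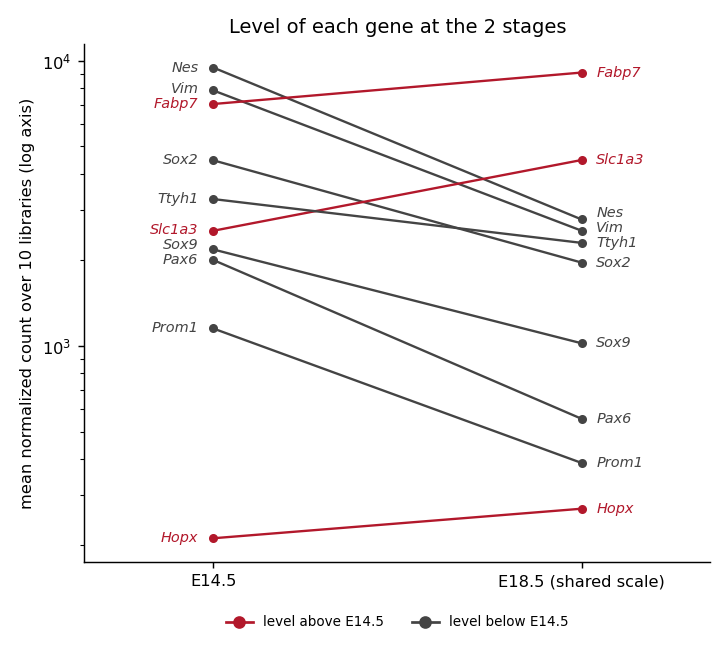
Mean normalized count of each marker over the 10 libraries of a stage (log axis), with E18.5 put on the scale of E14.5 by the median ratio of all genes tested at both stages; lines join the same gene, and heights are not comparable between genes because counts are not divided by length. Slc1a3, Fabp7 and Hopx (red) stand higher at E18.5, and the other 7 (grey) stand lower, from 1.42-fold for Ttyh1 to 3.61-fold for Pax6.

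At E14.5, during cortical neurogenesis, 1 of the 10 markers rose in KI and none fell. That marker was Ttyh1, with a log2 fold change of 0.13 (SE 0.037, adjusted p = 0.0491) per the authors' deposited table. The call of Ttyh1 was lost with no filter on low counts (adjusted p = 0.0652), with the Benjamini-Yekutieli adjustment (adjusted p = 0.494) and with an empirical null (adjusted p = 0.388). Of all 13417 genes tested, 1.21% were called at this stage, 0.738% higher and 0.47% lower. The fold change and mean count of Ttyh1 imply a mean of about 3123 normalized counts in WT and 3413 in KI, a difference of 9.27% (95% interval 3.88% to 14.9%). It stands close to the threshold. The lowest absolute Wald statistic of any called gene was 3.431 and that of Ttyh1 was 3.437, so it ranks 161st of the 162 called genes by p per the authors' deposited table.

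The neural stem cell factors Sox2 and Sox9 also had intervals above 0 at E14.5 but did not pass. Sox2 had the highest log2 fold change of the set, 0.16 (SE 0.060, adjusted p = 0.194) per the authors' deposited table, which implies about 4222 normalized counts in WT and 4717 in KI. Sox9 stood at 0.10 (SE 0.046, adjusted p = 0.342) per the authors' deposited table, for about 2101 in WT and 2251 in KI. At an unadjusted p under 0.05 there were 3 of the 10 markers, Sox2, Ttyh1 and Sox9, all higher, against 11.5% of all genes and 6.26% in the higher direction. Sox2 would have needed a difference of 15.5% to be called with its SE, and was at 11.7%.

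The other 7 markers had intervals that include 0 at E14.5. Nes was at 0.08 (SE 0.051, adjusted p = 0.558) and Prom1 at 0.02 (SE 0.054, adjusted p = 0.930) per the authors' deposited table. Vim and Pax6 lay nearest to 0. Both were at −0.01 (SE 0.050 and 0.042, adjusted p = 0.968 and 0.963) per the authors' deposited table, with 95% intervals of −7.22% to 6.30% for Vim and −6.14% to 5.15% for Pax6. Fabp7 and Slc1a3 had the lowest values, −0.06 (SE 0.044, adjusted p = 0.648) and −0.07 (SE 0.050, adjusted p = 0.610) per the authors' deposited table. Hopx, with the fewest counts, stood at −0.03 (SE 0.105, adjusted p = 0.952) per the authors' deposited table, and its interval of −15.2% to 12.9% is the widest of the set at this stage. Over the 10 markers 5 values were above 0 and the median was 0.01, beside 49.8% above 0 and a median of −0.00 over all genes tested.

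**Figure D2:**
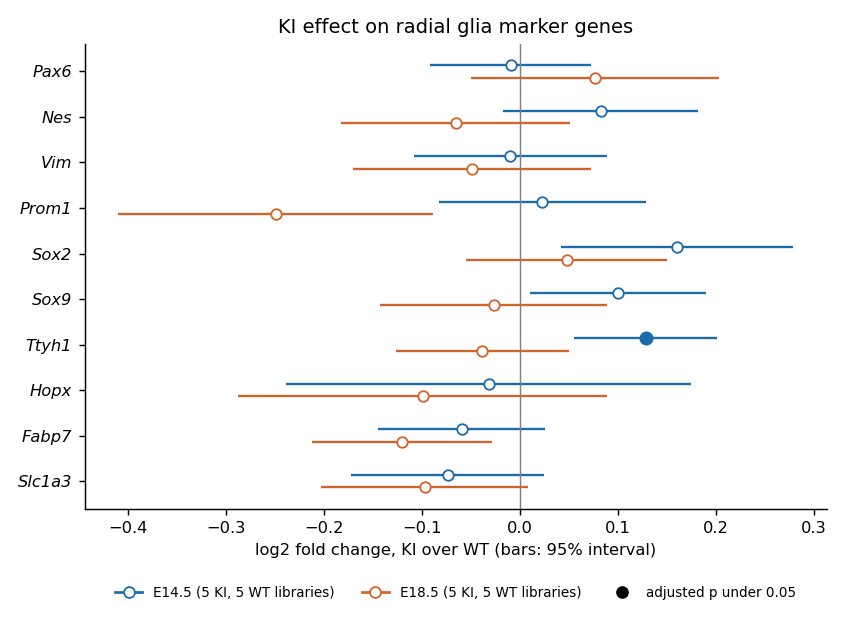
Log2 fold change of KI over WT for each marker at E14.5 (blue) and E18.5 (orange), with bars for the 95% interval from the authors' standard errors; filled points have an adjusted p under 0.05, and genes are ordered from the lowest to the highest level ratio between stages. Ttyh1 at E14.5 (0.13) is the filled point, Prom1 at E18.5 (−0.25) lies farthest from 0, and Hopx, Fabp7 and Slc1a3 at the bottom lie below 0 at both stages.

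At E18.5, shortly before birth, none of the 10 markers passed with DESeq2's Wald test per the authors' deposited table, where 0.0662% of 13601 genes were called. At an unadjusted p under 0.05 there were 2, Prom1 and Fabp7, both lower, against 5.96% of all genes and 2.82% in the lower direction. Prom1 had the value farthest from 0 in the set, −0.25 (SE 0.082, adjusted p = 0.397) per the authors' deposited table. This implies about 449.7 normalized counts in WT and 378 in KI, a difference of −15.9% (95% interval −24.7% to −5.98%). With its SE, a difference of 27.0% above WT or of the same log2 size below it would have been needed. Fabp7 was at −0.12 (SE 0.047, adjusted p = 0.647) per the authors' deposited table, for about 10084 in WT and 9277 in KI. These 2 genes were lower in KI on their own intervals but not after adjustment over all genes.

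The remaining 8 markers had intervals that include 0 at E18.5. Slc1a3 was at −0.10 (SE 0.054, adjusted p = 0.914) and Hopx likewise at −0.10 (SE 0.096, adjusted p = 0.9999) per the authors' deposited table. Nes, Vim, Ttyh1 and Sox9 were at −0.07, −0.05, −0.04 and −0.03 (SE 0.059, 0.062, 0.045 and 0.059) per the authors' deposited table. Pax6 and Sox2 were the markers above 0, at 0.08 and 0.05 (SE 0.064 and 0.052) per the authors' deposited table. The median of the 10 was −0.06, with 8 below 0, while 48.8% of all genes tested were above 0 and their median was −0.00. Ttyh1 had an interval of −8.42% to 3.51% at this stage.

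Whether the KI effect differed between stages was tested gene by gene, from the difference of the log2 fold changes and both SEs, since the stages share no library. None of the 10 markers passed after Benjamini-Hochberg adjustment over 13106 genes, nor did any other gene (0%), and 4.52% of all genes had an unadjusted p under 0.05. Of the markers 2 did. Ttyh1 was lower at E18.5 by a log2 difference of −0.17 (SE 0.058, 95% interval −0.28 to −0.05, adjusted p = 0.997). Prom1 had the largest difference in size, −0.27 (SE 0.098, 95% interval −0.46 to −0.08, adjusted p = 0.997). The differences of Nes, Sox9 and Sox2 were −0.15, −0.13 and −0.11 (SE 0.078, 0.075 and 0.080), with intervals that include 0. Of the 10 markers 9 had a lower value at E18.5 than at E14.5, Pax6 being the exception, beside 50.4% of all genes. The sign went from above to below 0 in 4 (Ttyh1, Sox9, Nes and Prom1) and the reverse in Pax6, and it stayed in 5.

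The KI values at each stage were set beside the level ratio between the stages, a comparison chosen after the values were seen. The 3 markers whose level stood higher at E18.5 (Slc1a3, Fabp7 and Hopx) lay below 0 at both stages, with medians of −0.06 at E14.5 and −0.10 at E18.5. Of the 7 whose level stood lower, 5 lay above 0 at E14.5, with a median of 0.08, and 2 at E18.5. In a second list of 30 other radial glia and ventricular zone genes, 22 of the 24 with a lower level at E18.5 were above 0 at E14.5, against 2 of the 6 with a higher level. Mt3, a metallothionein of the brain and 1 of those 2, had a log2 level ratio of only 0.01. The other, Slc1a2, had mean normalized counts of 2549 and 3703 and lay above 0 at both stages, at 0.05 and 0.02 (SE 0.049 and 0.049), per the authors' deposited table. Ednrb, 1 of the 22, also had close counts at the 2 stages (1273 and 1322) and was at 0.01 at E14.5 (SE 0.055), per the authors' deposited table. Over all 13106 genes 55.5% of those with a lower level and 43.5% of those with a higher level were above 0 at E14.5. At E18.5 these shares were 46.5% and 50.8%, the other way round. In the second list, 8 of the 24 with a lower level and 1 of the 6 with a higher level were above 0 at E18.5. The 2 measures are not independent, since the mean counts behind the level ratio include the KI libraries, so that a higher value in KI at E14.5 by itself lowers the ratio. The part of this in the counts was not tested, and genes are not independent replicates.

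**Figure D3:**
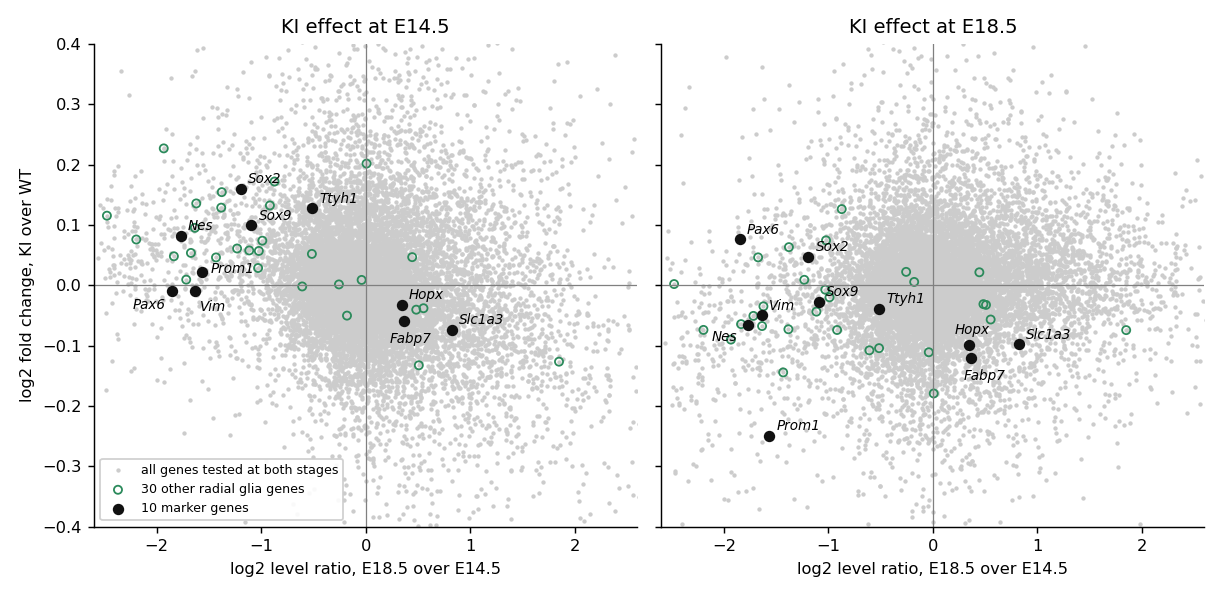
Log2 ratio of mean normalized counts at E18.5 over E14.5 (shared scale) against the log2 fold change of KI over WT at E14.5 (left) and E18.5 (right), for the 10 markers (black), 30 other radial glia genes (green) and all genes tested at both stages (grey); 231 points of the left panel and 133 of the right lie outside the axes. At E14.5 the green points with a lower level lie mostly above 0, and in both panels Slc1a3, Fabp7 and Hopx lie to the right and below 0.

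The wider set of 30 radial glia and ventricular zone genes can be read beside the markers. At E14.5, 24 of the 30 were above 0 with a median of 0.06, against 49.8% of all genes tested. Of the 30, 1 rose, against 1.21% of all genes called, 0.738% higher. This was Msi2, an RNA-binding protein of progenitors, at 0.17 (SE 0.044, adjusted p = 0.0130) per the authors' deposited table. Its call was lost with the Benjamini-Yekutieli adjustment and with an empirical null. At an unadjusted p under 0.05 there were 8 of the 30, against 11.5% of all genes. Of the Notch targets, Hes1 was at 0.23 (SE 0.079, adjusted p = 0.132) and Hes5 at 0.13 (SE 0.081, adjusted p = 0.554) per the authors' deposited table. At E18.5, 21 of the 30 were below 0 with a median of −0.05, while 48.8% of all genes tested were above 0, and 0 passed. An unadjusted p under 0.05 was reached by 1 of the 30, against 5.96% of all genes. Hes1 and Hes5 stood at −0.09 and −0.07 (SE 0.145 and 0.081) per the authors' deposited table, and Msi2 at 0.13 (SE 0.037, adjusted p = 0.210). Of 9 genes linked to outer radial glia in human cortex, Hopx among them, 0 passed at either stage, and the medians were −0.03 over 8 tested at E14.5 and −0.02 over 9 at E18.5. The extracellular matrix gene Tnc was at −0.13 and −0.07 (SE 0.113 and 0.052) at the 2 stages per the authors' deposited table.

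The apical junctions anchor radial glia at the ventricle. Of 14 genes of these junctions and of apical polarity 0 passed at either stage, with 7 above 0 at E14.5 and 8 at E18.5 and medians of −0.00 and 0.01. Their log2 fold changes ran from −0.06 to 0.14 at E14.5 and from −0.16 to 0.14 at E18.5. At an unadjusted p under 0.05 there were 2 of the 14 at E14.5, against 11.5% of all genes. At E18.5 there was 1, against 5.96% of all genes. The polarity genes Crb2 and Pard3 were at 0.14 and 0.09 at E14.5 (SE 0.065 and 0.044), and Pals1 was at −0.16 (SE 0.077) at E18.5, per the authors' deposited table. N-cadherin (Cdh2) and β-catenin (Ctnnb1) were at −0.05 and 0.02 (SE 0.042 and 0.033) at E14.5 and at 0.01 and 0.03 (SE 0.038 and 0.032) at E18.5 per the authors' deposited table.

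Among the cells that radial glia give rise to, intermediate progenitor genes had 0 called at either stage, with medians of 0.03 over 14 genes at E14.5 and 0.03 over 13 at E18.5. Eomes, which defines these cells, was at 0.02 (SE 0.032) and −0.13 (SE 0.139), and the proneural factor Neurog2 at 0.03 (SE 0.039) and 0.10 (SE 0.090), per the authors' deposited table. Neuronal genes had 10 of 12 below 0 at E14.5 (median −0.03), while 49.8% of all genes tested were above 0. Of the 12, 1 was called, against 1.21% of all genes, 0.47% lower. That gene, Neurod6, which marks excitatory neurons of the cortex, fell to −0.20 (SE 0.046, adjusted p = 0.00438) per the authors' deposited table, a call lost with an empirical null. At E18.5, 10 of the 12 were above 0 (median 0.03), against 48.8% of all genes tested, and 0 passed.

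**Figure D4:**
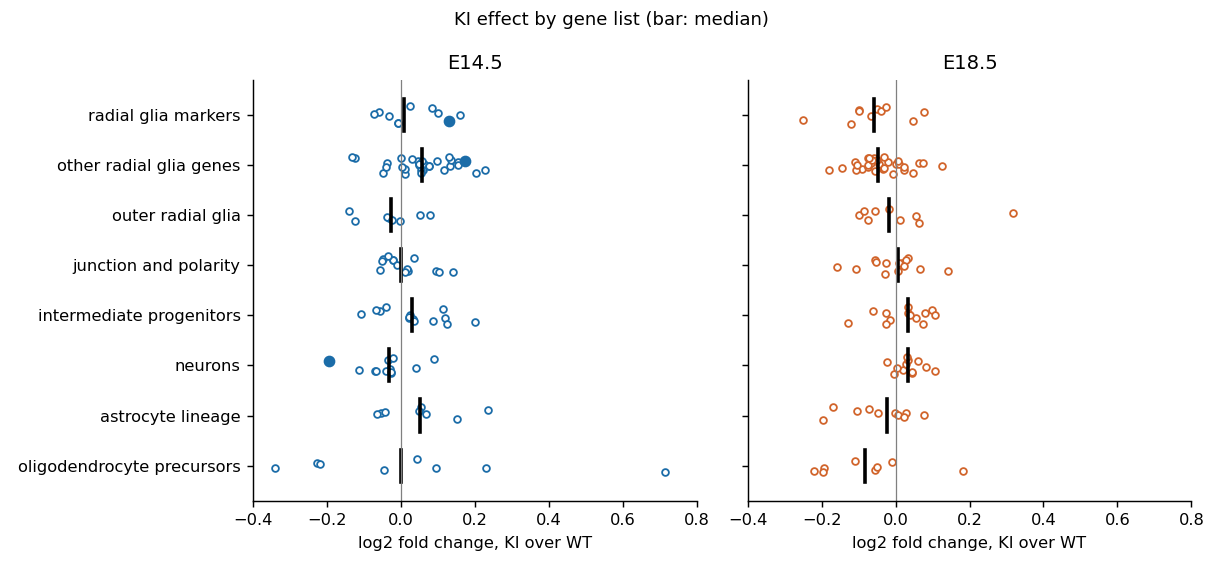
Log2 fold change of KI over WT for each tested gene of 8 lists at E14.5 (left) and E18.5 (right); open points did not pass, filled points have an adjusted p under 0.05, black bars are list medians, and some genes stand in more than 1 list. The medians of the radial glia markers are 0.01 and −0.06, and the filled points are Ttyh1, Msi2 and Neurod6 at E14.5.

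Several markers are also expressed by other cells, and the genes of those cells were measured in the same libraries. Fabp7, Slc1a3 and Sox9 are shared with astrocytes and oligodendrocyte precursors. Of 12 astrocyte genes 8 had an adjusted p at the earlier stage and 10 at the later, with 0 called and medians of 0.05 and −0.02. At an unadjusted p under 0.05 there were 2 of the 8 at E14.5, against 11.5% of all genes. These were Apoe at 0.24 and Gja1 at 0.15 (SE 0.071 and 0.070) per the authors' deposited table. At E18.5 there was 1 of the 10, against 5.96% of all genes, Aldh1l1 at −0.17 (SE 0.074) per the authors' deposited table. Gfap was at −0.20 (SE 0.128, adjusted p = 0.992) at E18.5, Aqp4 was at −0.00 (SE 0.094), and at E14.5 their mean normalized counts were 5.83 and 26.0, per the authors' deposited table. Of 8 oligodendrocyte precursor genes 7 were below 0 at E18.5 (median −0.08), while 48.8% of all genes tested were above 0, and 0 were called. An unadjusted p under 0.05 was reached by 3 of the 8, all below 0, against 5.96% of all genes. The summed mean counts of the 8 implied about 5732 in WT and 5172 in KI. At E14.5, where Fabp7 and Slc1a3 also lay below 0, 4 of these 8 were above 0 (median −0.00) and 0 were called, with about 1865 in WT and 1958 in KI. At an unadjusted p under 0.05 there were 3 of the 8 at E14.5, against 11.5% of all genes. These were Olig2 at 0.23, Bcas1 at 0.71 and Pdgfra at −0.23 (SE 0.078, 0.266 and 0.103) per the authors' deposited table. The lowest adjusted p of the list at E18.5 was that of Olig1, at −0.22 (SE 0.060, adjusted p = 0.141) per the authors' deposited table. The part of these cells in the values of Fabp7 and Slc1a3 was not tested.

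Prom1 is also made by multiciliated and other epithelial cells. Of 8 ependymal genes 7 were listed at E18.5, 6 of them below 0, while 48.8% of all genes tested were above 0. Of the 7, 1 had enough counts for an adjusted p. That gene, Foxj1, a regulator of motile cilia, was at −0.23 (SE 0.111, adjusted p = 0.808) per the authors' deposited table. The list's summed mean counts implied about 529 in WT and 449.6 in KI, mostly from Foxj1 alone (394.6 and 337.1). The other listed genes had SEs from 0.35 to 0.84. At E14.5, where Prom1 was at 0.02, 6 of the 7 listed genes were likewise below 0, with Foxj1 at −0.06 (SE 0.095, adjusted p = 0.859) per the authors' deposited table. The implied sums were about 291.6 in WT and 266.6 in KI, again mostly from Foxj1 (228.4 and 218.4). The part of these cells in the value of Prom1 was not tested.

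Vim is also expressed by meninges and vessels, and Sox9 by the choroid plexus. Of 8 endothelial genes 0 passed at either stage and the medians were −0.01 and 0.01, with Cldn5 at −0.04 and 0.02 (SE 0.078 and 0.089) per the authors' deposited table. Of 8 meningeal and fibroblast genes 5 of the 6 tested at E14.5 were above 0 (median 0.23), with 0 called and a summed mean count of 1058, while Vim was at −0.01. At E18.5, 5 of these 8 genes and 4 of 8 choroid plexus genes have no p per the authors' deposited table. Ttr, the defining choroid plexus gene, had a mean normalized count of 5.76 at E14.5 and 2718 at E18.5 per the authors' deposited table, with an SE of its log2 fold change of 1.88 at E18.5. That SE corresponds to a spread between libraries of about 206% of the mean, against 6.48% for Sox9 and 6.78% for Vim at the same stage. Microglial genes had 0 called at either stage, with medians of 0.12 and 0.15 over 7 tested genes. The part of these tissues in the values of Vim and Sox9 was not tested.

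The precision behind these values can be read from the SEs. With 5 libraries in each group, they correspond to a spread between libraries of 4.08% of the mean (Ttyh1) to 11.6% (Hopx) at E14.5 and of 4.94% (Ttyh1) to 10.5% (Hopx) at E18.5. To be called at E14.5 a marker needed a log2 fold change of between 0.13 (Ttyh1) and 0.36 (Hopx), and at E18.5, where fewer genes were called and the threshold was stricter, of between 0.19 (Ttyh1) and 0.40 (Hopx). Every marker that was not called lies below its threshold by definition, so the thresholds give only the size that this precision could call. Nothing in the labels tells litters apart, so the p-values measure only the spread between these libraries.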

How the data were processed

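The members and gene lists were chosen with earlier results of these data known. DESeq2 1.26.0, HISAT2 2.1.0, Trimmomatic 0.39 and featureCounts 2.0.0 are listed, and the build is mm10, per the submitters' processing notes. The authors deposited 1 table of KI against WT per stage. Per the file headers it gives a mean normalized count (a signal per gene averaged over libraries), a log2 fold change with its SE, a Wald score, and p-values before and after adjustment. The tables hold 0 columns of values per library, so the design planned for such tables, the authors' own DESeq2 test, was used. ChIP-seq and ATAC-seq samples were not analysed here.

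A gene was called at a deposited adjusted p under 0.05 over all genes that have one. Symbols came from RefSeq (GRCm38.p6). From the tables were computed 95% intervals, the stage difference (difference over the root of summed squared SEs, normal p, Benjamini-Hochberg) and level ratios. Implied WT and KI means assume equal groups of 5 (mean count divided between the groups by the fold change). The implied spread between libraries is the SE times ln 2 and the root of 5 divided by 2, and holds the model's shared dispersion. Named genes are the 10 members, Chd8, the first 2 genes and every called gene of each list, and the 5 genes nearest to the members' median over 3 values. A gene that this rule names is not reported here. Other genes were named after their values were seen. The stage test and the adjustment were tested on simulated data. Python 3.11.15, numpy 2.4.6, pandas 2.3.3 and scipy 1.17.1 were used. Alternatives were other gene filters, the Benjamini-Yekutieli adjustment, an empirical null, centring on the median gene and other summaries.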

Additional observations from a re-analysis of the deposited data

How the results depend on the processing

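The number of markers called at E14.5 went from 1 to 0 with no filter on low counts (Ttyh1 adjusted p = 0.0652), with the Benjamini-Yekutieli adjustment (adjusted p = 0.494) and with the empirical null (adjusted p = 0.388). It stayed at 1 when genes under a mean normalized count of 100 were left out and with centring on the median gene. Over all genes, 162 calls at E14.5 became 56 with Benjamini-Yekutieli and 31 with the empirical null. The 9 calls at E18.5 became 14 with that minimum of 100, 4 with Benjamini-Yekutieli and 19 with the empirical null. The calls of Msi2 and Dlx1 at E14.5 were lost under Benjamini-Yekutieli and the empirical null (0 called in their lists), and that of Neurod6 under the empirical null. Of the 100 values of single markers recomputed at a stage, 3 lost a call and 97 did not change in call. The 3 were all of Ttyh1 at E14.5, the only marker with a call to lose. Directions were not put to a test here, because only centring on the median gene alters the fold changes, and by little. At E18.5 and for the difference between stages, 0 markers were called under each alternative run there. Leaving low counts unfiltered adjusts over more genes, 17937 in place of 13417, and Benjamini-Yekutieli is the stricter adjustment. The empirical null divides each centred Wald statistic by the spread of these statistics over all genes tested. That spread was 1.22 at E14.5 and 0.949 at E18.5, where the deposited p-values assume 1. Why the Wald statistics were wider at E14.5 was not tested. Leaving out single libraries was not run, because the tables hold no values per library. No paired analysis was possible because the tables carry no column per library and hence no replicate number. Depth per library is unknown.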

Other observations

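Dlx1, a homeobox factor of ventral forebrain progenitors and interneurons, was the member of the forebrain identity list that rose at E14.5 (0.17, SE 0.047, adjusted p = 0.0369, per the authors' deposited table). Of the 7 genes of that list 5 were above 0 at E14.5 with a median of 0.06, beside 49.8% of all genes above 0 and 1.21% called. Emx1, Emx2 and Lhx2 were at −0.05, 0.05 and 0.06 (SE 0.067, 0.060 and 0.042) and Dlx2 and Six3 at 0.15 and 0.18 (SE 0.049 and 0.070, adjusted p = 0.0835 and 0.201), per the authors' deposited table. At E18.5 Dlx1 was at 0.08 (SE 0.046, adjusted p = 0.960) per the authors' deposited table. Genes tested with mean normalized counts of at least 500 at both stages were compared, leaving out the markers, genes without a symbol and Gm or Rik symbols. Among these 6858 genes, the 5 nearest to the median of the 10 markers over 3 values (both KI log2 fold changes and the log2 level ratio) were Ddr1, Rbpj, Gng5, Myo10 and Smarca5. Their distances were 0.0393 to 0.0482. Gng5 also stands in the list of genes linked to outer radial glia. The markers' medians were 0.01, −0.06 and −1.14. Ddr1, a collagen receptor, stood at 0.04, −0.04 and −1.13, and Rbpj, the DNA-binding partner of Notch, at −0.03, −0.08 and −1.14. With 3 values per gene this is a description of likeness to the markers' median and not to any single marker. The median mixes markers with a higher and a lower level at E18.5, and the 3 values were not scaled to each other.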
